A study of Mus musculus with 9 samples.

Results

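Of 10 genes of the bone morphogenetic protein (BMP) pathway, 1 passed the test in hyperoxia: Id1, which rose 1.40-fold in mouse cells labelled pulmonary microvascular endothelial, from 36.4 ± 2.16 to 51.1 ± 8.79 scaled FPKM (SD, n = 3, adjusted p = 0.049 by limma). That call lay at the threshold and was lost under 16 of 26 alternative settings. The 10 genes were Bmp4, Bmp7, Grem1, Bmpr1a, Bmpr2, Acvrl1, Smad6, Id1, Id2 and Id3. They were named for their roles in the pathway, with earlier results of these data known, out of 56620 genes and assembled loci in the table. Of them, 9 reached a mean of 1 FPKM over the libraries and were tested with 13831 genes in all, and Acvrl1 did not. FPKM are fragments scaled to transcript length and mapped fragments of the library, summed here over the transcripts of a gene and scaled between libraries by the median ratio over genes.

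BMPs are secreted ligands of the TGF-beta superfamily that bring type I and type II serine/threonine kinase receptors together at the cell surface. The receptors phosphorylate SMAD1, SMAD5 and SMAD9, which enter the nucleus with SMAD4 and switch on direct target genes. Among those targets are the ID genes, whose small helix-loop-helix proteins lack a DNA-binding region and hold E proteins in pairs that cannot bind DNA, and Smad6, whose product feeds back on the receptors and SMADs. In lung vessels the pathway is known for BMPR2, ACVRL1 and endoglin, in which inherited mutations cause pulmonary arterial hypertension or hereditary haemorrhagic telangiectasia.

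The cells were bought from a commercial supplier, kept for 48 h in all groups and sampled as 3 libraries a group. Room air (RA) was 21% oxygen, hyperoxia (HO) was 85% oxygen, and HO-rWNT5A was 85% oxygen with recombinant WNT5A protein, a secreted WNT ligand, at 100 ng/ml. All groups thus held the same purchased cells, and the protein in room air was not analysed here. The labels do not tell whether the 3 libraries of a condition were grown separately. The p-values therefore reflect the variation among these particular libraries, which could be technical.

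The libraries held a roughly estimated 21300000 to 26500000 fragments each. Genes varied most within HO, with a median SD of 0.123 on the log2 scale against 0.0736 for RA and 0.0829 for HO-rWNT5A. Principal component 1 parted the RA libraries (-15.79 to -11.68) from all others (2.83 to 11.75). Component 2 had its top score in HO replicate 2 (16.97), with HO replicate 1 next (10.86) and HO replicate 3 at -7.62. Scores of HO replicate 3 were the lowest on components 3 (-11.15) and 4 (-13.82), and HO-rWNT5A replicate 1 was at 12.71 on component 3. The label of the cells was checked against 12 pan-endothelial marker genes, of which 3 reached a mean of 1 FPKM. The defining markers Pecam1 (0.0930 FPKM on average), Cdh5 (0.0543) and Vwf (0.0442) were near 0, while Flt1 (37.9) and Emcn (10.1) were present. The 12 markers summed to 49.98 to 55.46 FPKM in the RA libraries, to 48.29 to 54.81 in those of HO and to 39.58 to 49.49 in those given rWNT5A. Of 10 pericyte and smooth muscle markers, 7 reached 5 FPKM, with sums of 2958 to 3308 FPKM in RA, 2429 to 3307 under HO and 2716 to 3116 when rWNT5A was added. Acta2 (1575 FPKM on average), Tagln (886.1) and Des (366.1) led this list, while Rgs5 (0.7575), Myh11 (0.236) and Kcnj8 (0.0375) were below 1 FPKM. Its members did not move together. Notch3 averaged 4.77 FPKM in RA and 8.06 in HO, whereas Acta2, Tagln, Des, Cnn1, Pdgfrb and Cspg4 averaged lower in HO than in RA. The fibroblast list (3 of 7 genes at 5 FPKM or more) summed to 263.3 to 280.9 FPKM in RA, above the 213.0 to 261.7 of HO and the 190.0 to 261.6 with rWNT5A. Col1a1 and Col1a2 led it, Pdgfra averaged 0.664 FPKM, and Dpt was listed at 0 in every library. The mesothelial list (1 of 4) summed to 26.17 to 30.24 FPKM in RA, 18.9 to 22.65 under HO and 22.94 to 23.26 with rWNT5A, nearly all of it Wt1, with Upk3b at 0.0599 on average. The epithelial list (3 of 8) summed to 93.15 to 110.3 FPKM in RA, 86.41 to 115.3 under HO and 87.5 to 101.7 with rWNT5A. Krt18 and Krt8 led it, while Sftpc and Scgb1a1 were listed at 0 in every library. The lymphatic endothelial list (2 of 4) summed to 17.62 to 21.16, 18.05 to 22.63 and 18.91 to 20.38 FPKM in the same order. Pdpn (11.2 on average) and Flt4 (6.41) led it, while Lyve1 averaged 1.63 and Prox1 0.736. Of 6 lung capillary endothelial and 6 leukocyte and macrophage markers, 0 reached 5 FPKM. The cells are therefore called by their label only. In bulk RNA, fewer cells of a type and less RNA per cell cannot be told apart.

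Sequence near the start of target genes is shown because these are genes that BMP-activated SMADs are known to switch on. The RefSeq promoter table (GRCm38.p6) was searched for Id1, Id2, Id3 and Smad6, and 3 of the 4 matched, each with a window from 250 bases before to 50 bases after the RefSeq start site. All 300 bases of the Id3 window lie within annotated exons of GENCODE M21, whose Id3-201 starts farther upstream, and no GENCODE transcript starts at that site, so it is not described as a promoter here. The Id2 site is the start of Id2-201, and 211 bases of its window lie in exons, mostly of the longer Id2-202. The Smad6 site is the start of Smad6-201. The stretch before the first annotated exon base in each window is given 5′ to 3′ on the gene's strand, at chr12:25096254-25096342 (minus strand, within an intron of Id2-202) for Id2 and chr9:64022060-64022309 (minus strand) for Smad6. Capitals mark GGCGCC, a sequence known to bind SMAD1 and SMAD5, or CAGAC and its reverse complement GTCTG, the core of the SMAD-binding element.
Id2: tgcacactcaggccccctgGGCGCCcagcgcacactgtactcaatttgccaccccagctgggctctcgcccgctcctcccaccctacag
Smad6: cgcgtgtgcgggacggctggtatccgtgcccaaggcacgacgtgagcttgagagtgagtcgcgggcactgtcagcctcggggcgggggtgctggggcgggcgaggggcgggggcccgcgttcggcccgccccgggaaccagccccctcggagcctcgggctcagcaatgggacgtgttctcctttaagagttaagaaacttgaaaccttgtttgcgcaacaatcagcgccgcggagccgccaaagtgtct

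The Id2 window held 1 GGCGCC, 231 bases before the start of Id2-201, and no CAGAC on either strand. Neither motif was found in the Smad6 window. Searched on both strands over 32851 mouse windows of the same 300 bases, GGCGCC occurred in 11.9% and CAGAC in 49.6%. The E-box CANNTG, the sequence that E proteins bind, was in 72.3% of windows. It occurred 1 time each in those of Id2 and Smad6, without overlapping the other motifs there. A match is only a description of the letters.

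By level, the ID genes stood highest of the 10. Over the 9 libraries the means were 109.5 FPKM for Id3, 43.2 for Id1, 43.0 for Id2, 29.4 for Bmpr2, 24.6 for Bmpr1a, 15.0 for Grem1, 10.8 for Bmp4, 5.997 for Smad6, 3.49 for Bmp7 and 0.237 for Acvrl1. Id3 was above 97.3% of the tested genes, Id1 above 91.6% and Id2 above 91.5%, whereas Bmp7 was above 30.0%. The neighbours Id1 and Id2 overlapped within every group, so their order is not fixed. Bmpr2 lay above Bmpr1a in each of the 9 libraries.

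**Figure D1:**
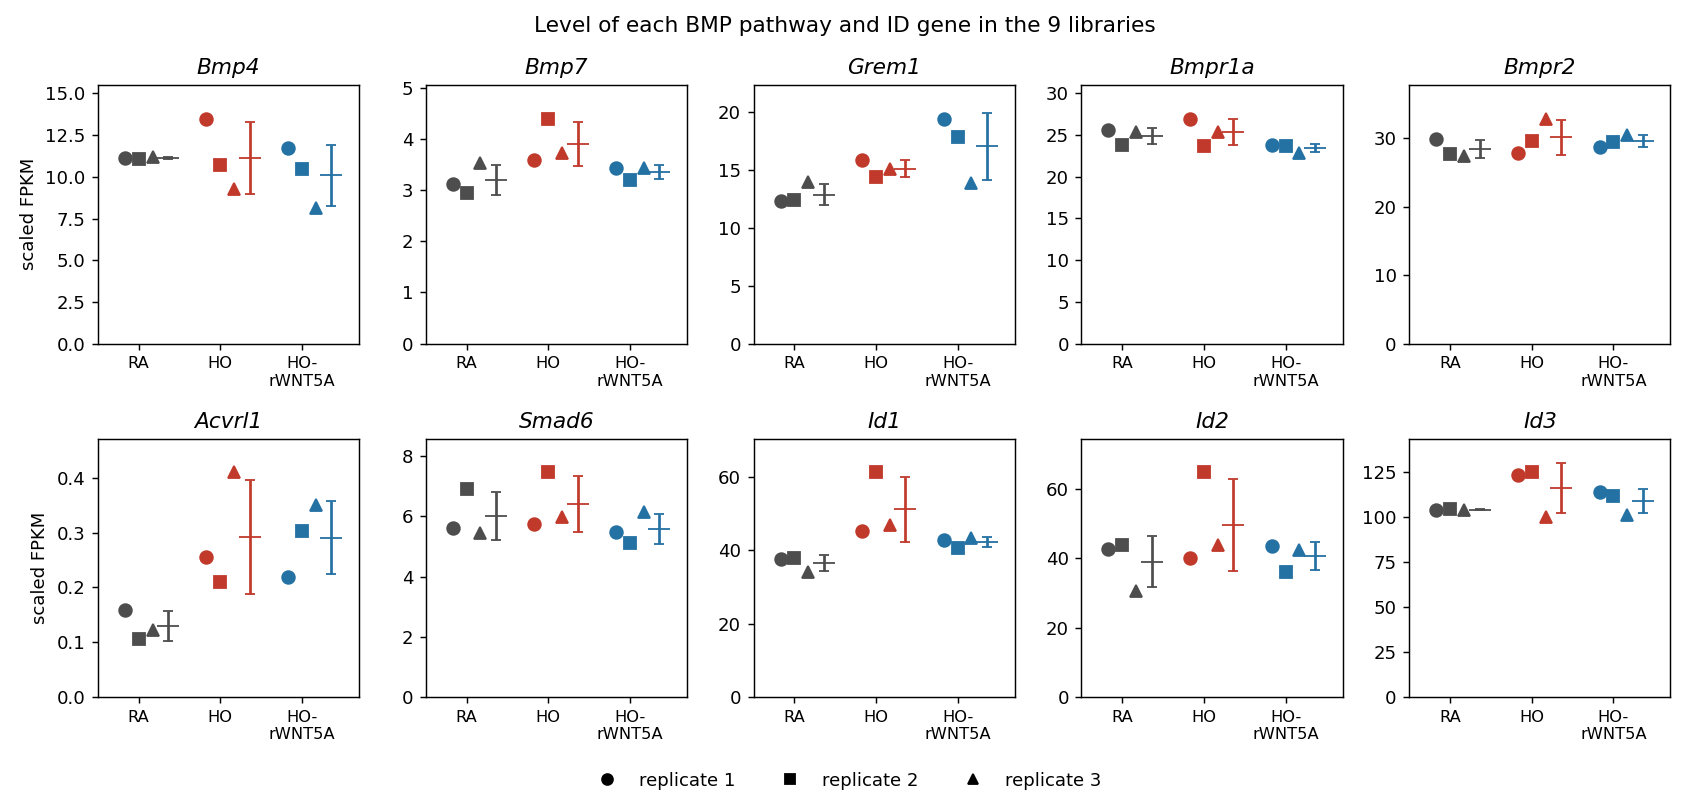
Scaled FPKM of each of the 10 genes (vertical axis, from 0) in the RA, HO and HO-rWNT5A libraries, with 1 symbol per replicate and the group mean ± SD (n = 3) beside the points. In the Id1 panel the 3 groups do not overlap, with RA at 33.94 to 37.8, HO-rWNT5A at 40.71 to 43.2 and HO at 45.14 to 61.19 FPKM.

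The first comparison, HO against RA, asks what 48 h of 85% oxygen changed. Of the 9 tested genes, 1 rose (Id1) and 0 fell by limma with Benjamini-Hochberg adjustment over all genes at a threshold of 0.05, against a background of 1.97% of all genes called, 1.19% higher and 0.788% lower. These were 164 higher and 109 lower genes, and the split turned to 103 and 179 with FPKM as deposited and to 26 and 30 with equal totals. At an unadjusted p under 0.05, 2 of 9 passed (Id1 and Bmp7), against 18.2% of all genes. The HO libraries lay above every RA library for 3 of 9 genes, Id1, Bmp7 and Grem1, against 11.1% of all genes, and below every RA library for 0 of 9, against 10.4%. The median log2 fold change of the 9 was 0.15, beside -0.01 over all genes tested.

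The ligands came first in the pathway. Bmp4 (chr14:46383520-46390669, minus strand, the coordinates here and below being those of GENCODE M21 on GRCm38), a BMP ligand made in lung mesenchyme and endothelium, measured 11.14, 11.08 and 11.18 FPKM in RA, 13.49, 10.69 and 9.256 in the HO libraries, and 11.73, 10.45 and 8.123 in HO-rWNT5A. The RA libraries nearly coincided, while HO and HO-rWNT5A spread to both sides of them, and every pair of groups overlapped. The HO and RA means were 11.15 ± 2.15 and 11.13 ± 0.0499 FPKM, a ratio of 1.002, while the mean of log2 values was lower in HO by a difference of -0.01 (95% interval -0.31 to 0.29, limma adjusted p = 0.97). An antisense gene, Gm15222, overlaps Bmp4 and averaged 1.129 FPKM, and whether the counting used strand is not given in the sources used here.

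Bmp7 (chr2:172868012-172940321, minus strand), a ligand known chiefly from kidney and bone development, was the lowest of the 9 tested genes. Its values were 3.117, 2.956 and 3.537 FPKM in RA, 3.585, 4.401 and 3.722 in the HO libraries, and 3.429, 3.198 and 3.431 in HO-rWNT5A. The 3 HO libraries lay above all 6 others. The mean was 3.90 ± 0.437 FPKM in HO against 3.20 ± 0.300 in RA, a log2 difference of 0.22 ± 0.0865 (SE, 95% interval 0.03 to 0.41) that did not pass adjustment (limma adjusted p = 0.211). With rWNT5A the mean was 3.35 ± 0.134 FPKM, a log2 difference of -0.17 from HO (95% interval -0.36 to 0.02, limma adjusted p = 0.572).

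Grem1 (chr2:113746164-113758646, minus strand) encodes gremlin 1, a secreted antagonist that binds BMP2, BMP4 and BMP7 and keeps them from their receptors. It measured 12.28, 12.4 and 13.95 FPKM in RA, 15.87, 14.38 and 15.09 in the HO libraries, and 19.43, 17.83 and 13.83 in HO-rWNT5A. All HO libraries were above all RA libraries, and HO-rWNT5A held both the highest 2 values and 1 value below RA replicate 3. The difference of HO from RA was 0.22 ± 0.107 on the log2 scale (SE, 95% interval -0.02 to 0.45, limma adjusted p = 0.314). Between HO-rWNT5A (17.03 ± 2.88 FPKM) and RA (12.9 ± 0.934) it was 0.37 ± 0.107 (95% interval 0.13 to 0.60, limma adjusted p = 0.0811).

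The receptors stayed within narrow ranges. Bmpr1a (chr14:34410734-34503341, minus strand), a type I receptor for BMP2 and BMP4, measured 25.59, 23.78 and 25.34 FPKM in RA, 26.97, 23.74 and 25.4 in the HO libraries, and 23.84, 23.7 and 22.9 in HO-rWNT5A. The ratio of the highest to the lowest library was 1.18, the smallest among the 10 genes, and all groups overlapped. HO differed from RA by 0.02 on the log2 scale (95% interval -0.11 to 0.16, limma adjusted p = 0.86). Bmpr2 (chr1:59763400-59879014, plus strand), the type II receptor, measured 29.95, 27.77 and 27.47 FPKM in RA, 27.86, 29.64 and 32.86 in the HO libraries, and 28.72, 29.43 and 30.52 in HO-rWNT5A. These groups overlapped as well, with a ratio of 1.20 between the highest and lowest library. The log2 difference of HO from RA was 0.08 (95% interval -0.07 to 0.23, limma adjusted p = 0.564). For both receptors these intervals leave room for changes smaller than their bounds.

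Acvrl1 (chr15:101128522-101145336, plus strand), the type I receptor ALK1 through which endothelial cells respond to BMP9 and BMP10, was below the minimum level and not tested. It measured 0.159, 0.1056 and 0.1228 FPKM in RA, 0.2549, 0.2108 and 0.4101 in the HO libraries, and 0.2194, 0.3028 and 0.3505 in HO-rWNT5A. The 3 RA values were the lowest, and HO and HO-rWNT5A overlapped. That order depended on how transcripts were summed. With each transcript weighted by its length, a choice made after seeing the data, RA measured 0.1587, 0.1063 and 0.1233 FPKM. HO-rWNT5A replicate 1 (0.116) then lay within the RA range, and HO replicate 2 (0.1593) was barely above it. At the length of Acvrl1-201 (3640 bases), the summed levels correspond to a roughly estimated 9 to 33 fragments a library. Shorter forms would hold fewer. Of 11 annotated transcripts, 3 were listed at 0 in every library. With the filter on low genes removed, the log2 difference of HO from RA was 0.19 ± 0.0624 (SE, limma adjusted p = 0.304). Of the genes that act with it, the co-receptor Eng (endoglin) averaged 0.941 FPKM and the ligand Bmp10 0.00079, and Gdf2, which encodes BMP9, was listed at 0 in every library. Its type II partner Bmpr2 averaged 29.4 FPKM, and Smad1 and Smad5, which it activates, 18.7 and 16.9.

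**Figure D2:**
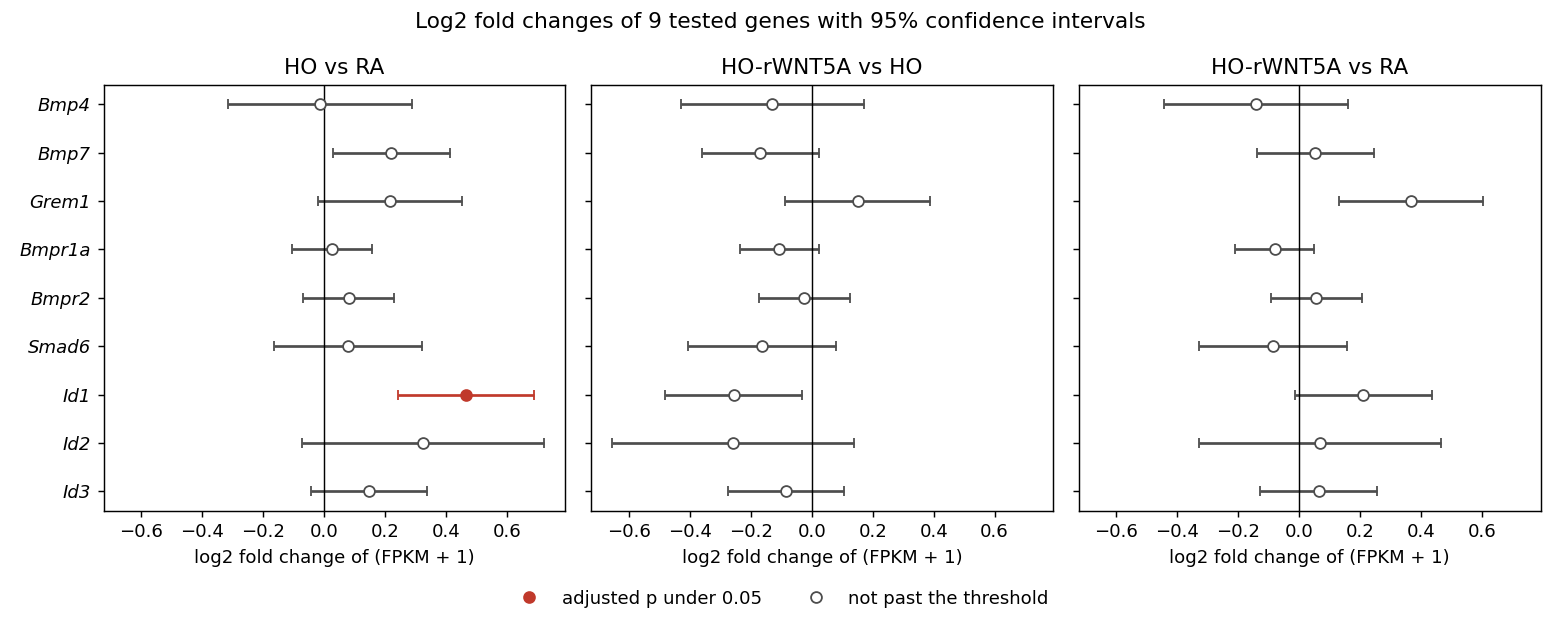
Log2 fold change of (scaled FPKM + 1) with its 95% confidence interval (horizontal axis) for the 9 tested genes in the 3 comparisons, with filled red for an adjusted p under 0.05. Id1 in HO vs RA (0.47) is the only filled point, and the Id1 interval in HO-rWNT5A vs HO runs from -0.48 to -0.03.

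Smad6 (chr9:63953076-64022059, minus strand), the inhibitory SMAD that is itself a BMP target, measured 5.631, 6.92 and 5.459 FPKM in RA, 5.763, 7.469 and 5.972 in the HO libraries, and 5.496, 5.13 and 6.134 in HO-rWNT5A. Replicate 2 was the highest library within RA and within HO, and all groups overlapped. HO differed from RA by 0.08 on the log2 scale (95% interval -0.16 to 0.32, limma adjusted p = 0.744).

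Id1 (chr2:152736251-152737410, plus strand), the ID gene most used as a readout of BMP signalling, measured 37.54, 37.8 and 33.94 FPKM in RA, 45.14, 61.19 and 46.94 in the HO libraries, and 42.83, 40.71 and 43.2 in HO-rWNT5A. Every HO library was above every other library, and every HO-rWNT5A library lay between the RA and HO ranges. HO was higher than RA by 0.47 ± 0.101 on the log2 scale (SE, 95% interval 0.24 to 0.69, limma adjusted p = 0.049), in 3 of 3 libraries. This value sits at the edge of the threshold. The fibroblast and mesothelial marker sums were lower in every HO library than in every RA library, and their part in the Id1 result was not tested. Without HO replicate 2, the highest library, the difference was 0.33 with a limma adjusted p of 0.0551, and without HO replicates 2 and 3 it was 0.30 (limma adjusted p = 0.133). With each library left out in turn, Id1 passed 2 of 9 times, without HO replicate 1 or HO replicate 3. It did not pass without any 1 of the RA libraries (limma adjusted p from 0.113 to 0.167) or of the HO-rWNT5A libraries (0.0743 to 0.08). The call also depended on which genes set the scale between libraries: with reference genes above 0 in every library, in place of at least 1 FPKM, the adjusted p was 0.0517. Of 26 alternative settings, 10 kept Id1 under the threshold and 16 did not, with log2 differences of 0.30 to 0.55 and adjusted p from 0.0347 to 0.167. With 3 libraries a side, the smallest p that exact permutation allows is 0.1.

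**Figure D3:**
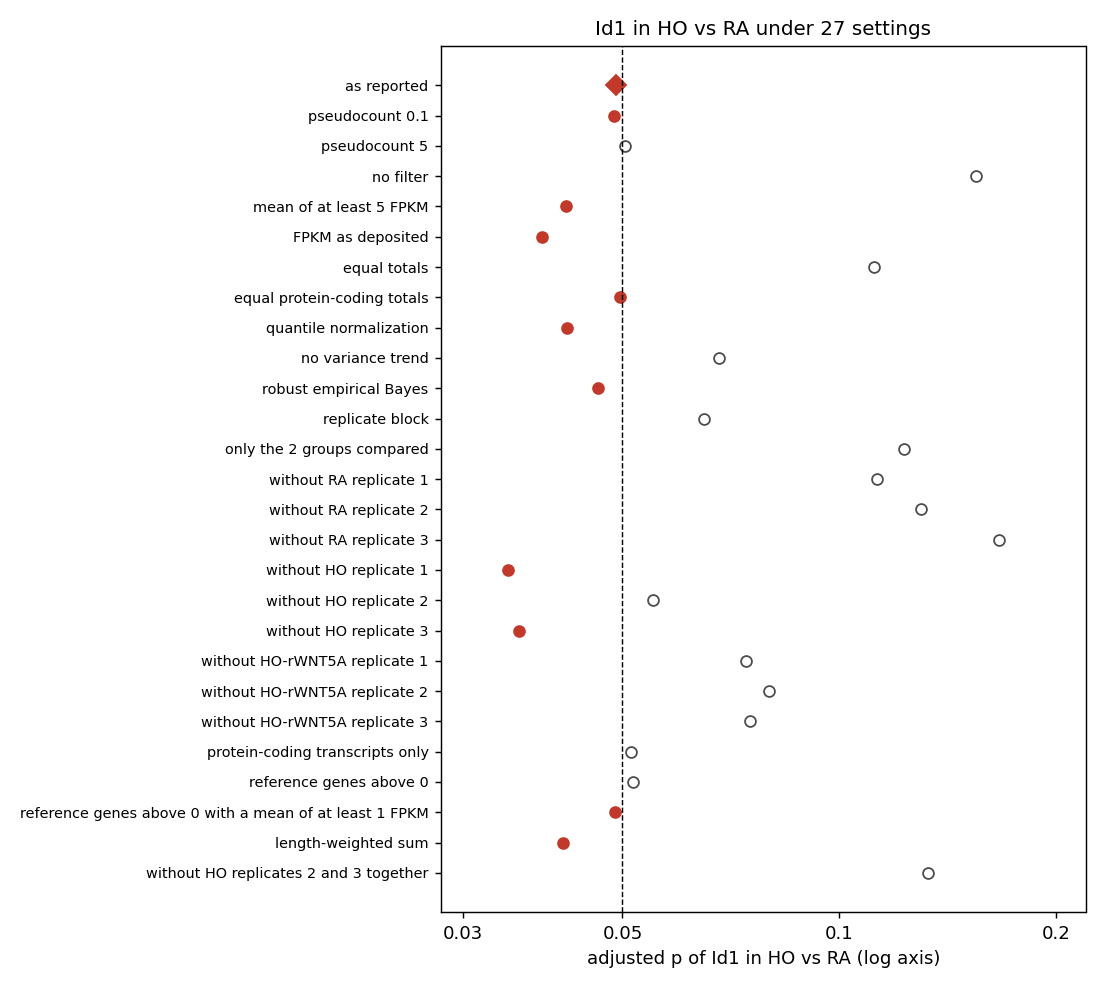
Adjusted p of Id1 in HO vs RA (horizontal log axis) as reported (diamond) and under 26 alternative settings (circles), filled red where under 0.05, with the dashed line at 0.05. The points lie on both sides of the line, from 0.0347 without HO replicate 1 to 0.167 without RA replicate 3.

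Both annotated forms of Id1 were higher in HO. The spliced form, Id1-201 (934 bases), carried 78.3% of the level and measured 30.28, 28.66 and 25.97 FPKM in RA against 34.98, 49.17 and 37.1 in HO. The form that keeps the intron, Id1-202 (1160 bases), measured 7.262, 9.136 and 7.968 FPKM in RA against 10.16, 12.02 and 9.844 in HO. For each form all HO libraries lay above all RA libraries. The 2 forms have the same start and end and share most of their sequence, so they largely repeat the result of the whole gene. Their ratio hardly moved, the spliced form taking 77.7% of the level on average in RA, 79.1% under HO and 77.7% with rWNT5A.

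Id2 (chr12:25093799-25097140, minus strand), known for holding back differentiation in several lineages, measured 42.6, 43.77 and 30.42 FPKM in RA, 40.09, 64.67 and 43.75 in the HO libraries, and 43.36, 35.87 and 42.22 in HO-rWNT5A. A single library, HO replicate 2, stood far above the rest, RA replicate 3 was the lowest, and the groups overlapped. HO was 0.33 ± 0.179 above RA on the log2 scale (SE, 95% interval -0.07 to 0.72, limma adjusted p = 0.37). It was 0.12 without HO replicate 2 and 0.16 without RA replicate 3, and at most 0.46, without HO replicate 1. With each library left out in turn, the limma adjusted p ran from 0.226 to 0.771.

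The FPKM of Id2 was divided among its transcripts very differently from library to library. Id2-202 (1969 bases) begins upstream of Id2-201 (1270 bases). In RA replicate 3, Id2-202 took 86.5% of the gene's FPKM and Id2-201 3.97%. In HO replicate 2 it was listed at 0, while Id2-201 took 93.1%. FPKM divides by length, so the same reads give a larger sum when they are assigned to the shorter form. When each transcript was weighted by its length, an alternative chosen after seeing the data, Id2 measured 35.3, 32.3 and 28.63 FPKM in RA, 33.99, 40.57 and 38.37 in the HO libraries, and 30.84, 29.92 and 36.98 in HO-rWNT5A. HO replicate 2 remained the highest library by a smaller margin, and the coefficient of variation within HO went from 26.8% to 8.89%. The log2 difference of HO from RA was then 0.23, with a limma adjusted p of 0.249.

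**Figure D4:**
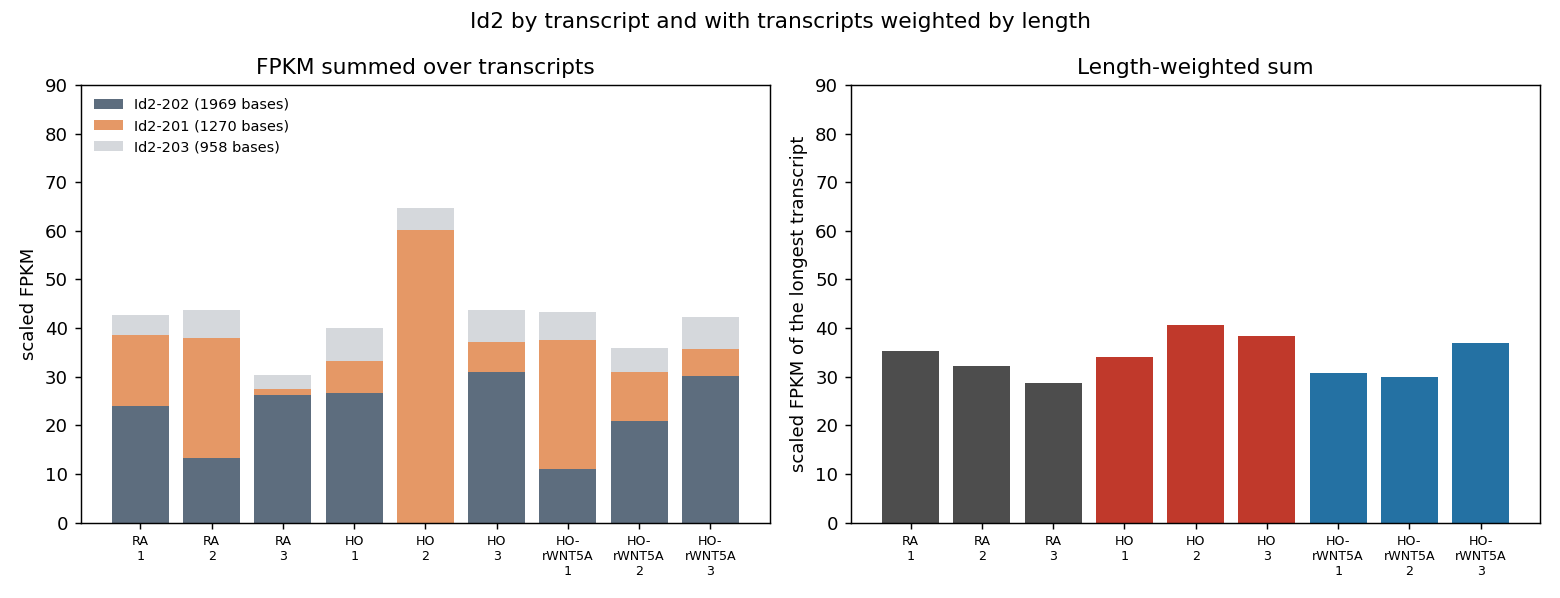
Left, scaled FPKM of Id2 in each library as stacked bars of its 3 transcripts, and right, the sum with each transcript weighted by its length relative to the longest (both axes from 0 to 90 FPKM). HO replicate 2 reaches 64.67 on the left, nearly all Id2-201, and 40.57 on the right.

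Id3 (chr4:136143497-136145755, plus strand), the most abundant ID gene here, measured 103.6, 104.2 and 103.9 FPKM in RA, 123.3, 124.6 and 99.6 in the HO libraries, and 113.8, 111.3 and 101.1 in HO-rWNT5A. HO replicates 1 and 2 were the highest libraries, whereas HO replicate 3 was below all RA libraries. The mean was 115.8 ± 14.1 FPKM in HO and 103.9 ± 0.309 in RA, a log2 difference of 0.15 ± 0.086 (SE, 95% interval -0.04 to 0.34, limma adjusted p = 0.396). Each HO library left out in turn moved it, to 0.10 without replicate 1 (limma adjusted p = 0.605), 0.09 without replicate 2 (0.698) and 0.25 without replicate 3 (0.0422), while it did not pass in the other 8 of 9 cases. HO replicate 3 also had the lowest share of FPKM in small structural RNA, 20.07%. The others ran from 21.39% (RA replicate 1, with Id3 at 103.6 FPKM) to 28.07% (HO-rWNT5A replicate 1, at 113.8). The part of this share in the result was not tested.

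Summed over Id1 to Id4, the ID family reached 169.6 to 187.2 FPKM in RA, 192.3 to 252.3 under HO and 188.4 to 201.7 with rWNT5A. Id3 made up 49.4% to 61.3% of that sum and Id4 about 1%, between 0.728% and 1.07%. The share of Id1 was 20.0% to 20.2% in RA, 21.5% to 24.4% under HO and 21.2% to 22.9% with rWNT5A. These totals and shares use the plain FPKM sum of Id2, which depended on how its reads were assigned to transcripts. They were not computed with length weighting. The totals also contain Id1 itself, and no background over all genes was computed for them. HO replicate 2 held the highest value of 5 of the 9 tested genes, Bmp7, Smad6, Id1, Id2 and Id3. It also lay farthest out on the second principal component of all genes, and the part of this library in the HO means was not tested beyond leaving it out.

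The second comparison, HO-rWNT5A against HO, asks what the added protein changed under the same oxygen. By limma, 0 of the 9 tested genes passed, against a background of 0.00723% (1 of 13831 genes), and 1 of 9 had an unadjusted p under 0.05 (Id1), against 9.25% of all genes. Id1 was lower with rWNT5A in 3 of 3 libraries, 42.3 ± 1.35 against 51.1 ± 8.79 FPKM, a log2 difference of -0.26 ± 0.101 (SE, 95% interval -0.48 to -0.03, limma adjusted p = 0.501). Without HO replicate 2 it was -0.12 (limma adjusted p = 0.75), and without HO replicates 2 and 3 it was -0.09. It was larger without HO replicate 1 (-0.34, limma adjusted p = 0.545) and without HO replicate 3 (-0.31, limma adjusted p = 0.177). Bmp7 was the other gene whose HO-rWNT5A libraries all lay below the HO libraries, so the count was 2 of 9, against 6.75% of all genes, and 0 of 9 lay above them, against 6.31%. The median log2 difference of the 9 was -0.13, beside 0.00319 over all genes, and 8 of the 9 values were negative, the exception being Grem1 at 0.15 (95% interval -0.09 to 0.39, limma adjusted p = 0.693), which ran from 0.05 to 0.29 with each library left out in turn. Without HO replicate 2, the difference was -0.05 for Id2, -0.03 for Id3, -0.06 for Smad6 and -0.10 for Bmp7. These were the smallest with each library left out in turn, and the largest were -0.39, -0.19, -0.22 and -0.21 in the same order. The same HO libraries enter this comparison and the first with opposite sign, so a high HO library moves the values of both apart. Id2 differed by -0.26 (95% interval -0.65 to 0.14), Id3 by -0.08, Smad6 by -0.16, Bmp4 by -0.13, Bmpr1a by -0.11 and Bmpr2 by -0.02 on the log2 scale.

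The third comparison set HO-rWNT5A against RA, the combined exposure against cells with neither. It shares its libraries with the other comparisons. By limma, 0 of the 9 genes passed, against a background of 4.35% of all genes (2.42% higher and 1.92% lower). Over all genes this was 335 higher and 266 lower, which became 209 and 615 with FPKM as deposited and 93 and 164 with equal totals. At an unadjusted p under 0.05, 1 of 9 passed (Grem1), against 20.9%. The Id1 level was 42.3 ± 1.35 FPKM against 36.4 ± 2.16, higher in 3 of 3 libraries, with a log2 difference of 0.21 (95% interval -0.01 to 0.43, limma adjusted p = 0.269). It was the 1 gene of 9 with non-overlapping groups in the higher direction, against 16.2% of all genes, and in the lower direction there were 0, against 16.7%. The Grem1 difference passed without HO-rWNT5A replicate 3 (0.50, limma adjusted p = 0.0214) and did not with any other library left out, the lowest being 0.27 without HO-rWNT5A replicate 1 (limma adjusted p = 0.216). The median log2 difference of the 9 was 0.06, beside -0.00474 over all genes.

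The wider pathway was read from 7 lists by role, holding 66 genes of which 42 were tested. Id1 was the only one called in HO vs RA, and 0 of 42 were called by limma in either of the other comparisons. At an unadjusted p under 0.05 the counts were 7 of 42 in HO vs RA, 1 in HO-rWNT5A vs HO and 13 in HO-rWNT5A vs RA, beside 18.2%, 9.25% and 20.9% of all genes. The median log2 differences of the 42 were 0.08, -0.04 and 0.06.

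Among 14 ligands, 6 were tested and 0 called in any comparison. Bmp2, a ligand close to Bmp4, was the highest at 24.6 ± 2.61 FPKM over the 9 libraries, followed by Bmp4 and Bmp6 (7.004). Of 11 receptors and co-receptors, 7 were tested and 0 called, with Acvr1, the type I receptor ALK2, at 27.3 FPKM beside Bmpr2 and Bmpr1a. Of 6 SMADs of the branch, 5 were tested and 0 called. The common partner Smad4 averaged 35.4 FPKM, the inhibitory Smad7 34.8 and the receptor-activated Smad1 18.7.

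Extracellular antagonists and modulators were the largest list, with 8 of 16 tested and 0 called. In HO-rWNT5A vs RA, 6 of the 8 had an unadjusted limma p under 0.05, beside 20.9% of all genes. Libraries were all higher for 2 of the 8 and all lower for 3, beside 16.2% and 16.7%. In HO vs RA 1 of 8 had such a p, and in HO-rWNT5A vs HO 0. This list was singled out after its counts were seen. Fstl1, a secreted follistatin-like glycoprotein, averaged 71.4 FPKM, Nbl1, which encodes the DAN antagonist, 46.2, and Fst, follistatin, 39.2, all above Grem1. The classical antagonists Nog and Chrd averaged 0.146 and 0.284 FPKM. All 7 intracellular inhibitors were tested and 0 were called. The closest to the threshold was Ski, a co-repressor that binds SMADs, at 43.3 ± 2.37 FPKM in HO against 36.8 ± 1.71 in RA, with all HO libraries higher (log2 difference 0.23, limma adjusted p = 0.0735). Among 14 target genes 11 were tested and 1 called, Id1. The 3 E proteins that ID proteins bind, Tcf3 (28.7 FPKM), Tcf12 (25.3) and Tcf4 (24.1), were tested and 0 called.

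**Figure D5:**
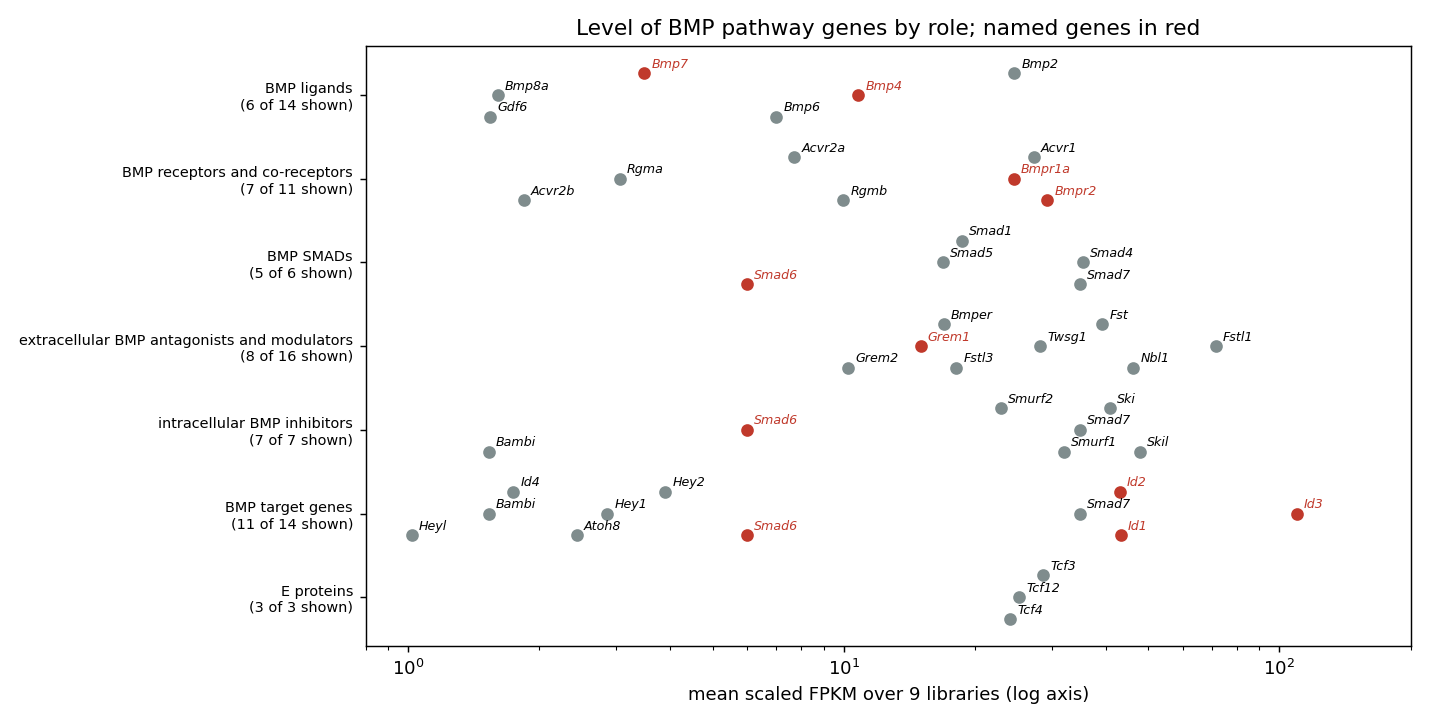
Mean scaled FPKM over the 9 libraries (horizontal log axis) of the pathway genes that reached 1 FPKM, in rows by role, with 9 of the 10 named genes in red (Acvrl1 was below 1 FPKM) and each row's count of genes shown out of those listed. Id3 (109.5 FPKM) is the farthest to the right, and Bmp7 (3.49) is the lowest of the red points.

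Over the 9 libraries, the genes whose level ran most like that of Id1, of 10823 named genes compared, were Lrrc41 (Pearson r = 0.989, Spearman rho = 0.95), Ppp2cb (r = 0.971) and L3hypdh (r = 0.96). For Id3 they were Selenow (r = 0.974), Agpat2 (r = 0.97) and Paqr7 (r = 0.962), and for Id2 Chst14 (r = 0.956), Gclm (r = 0.944) and Hcn2 (r = 0.937). These are the highest of many correlations over libraries that fall into groups and share their scaling, and they are given as a description without a test.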

How the data were processed

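RNA of 9 libraries (3 each of RA, HO and HO-rWNT5A) was read as 150-base pairs. Per the labels' protocols, reads were trimmed with Skewer 0.2.2, aligned with STAR 2.5.3a and assembled with StringTie 1.3.1. The submitters' processing notes list the builds hg38 and mm10 and also DESeq2. The deposited values are FPKM for 143043 transcripts, and 99.36% of the 142351 Ensembl mouse identifiers matched GENCODE M21 (GRCm38, also called mm10). FPKM keeps no counts, so depths are rough and no count test was run.

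FPKM was summed per gene and scaled by the median ratio over genes of at least 1 FPKM in every library. Genes averaging 1 FPKM or more were tested with limma 3.58.1 in R 4.3.3 on log2(scaled FPKM + 1), in 1 fit of all 9 libraries with a variance trend. Tests were two-sided, adjusted over 13831 genes by Benjamini-Hochberg, and called at 0.05. On that scale the fold change of a low gene comes out too small. The fit was checked on simulated data. Python 3.11.15 was used with numpy 2.4.6, pandas 2.3.3 and, for plots, matplotlib 3.10.9.

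The 10 genes, the lists and the tests were chosen with earlier results of these data known. The plan did not state which genes set the scale. The genes of at least 1 FPKM were taken after other sets had been tried, because they gave the counts of an earlier analysis of these data, and the other sets are among the alternatives. All 10 genes are named whatever their values, and other pathway genes where they passed or were the highest 3 of their list. Others named, such as Ski, Nog, Chrd, Eng, Gdf2 and Bmp10, were chosen after their values were seen. Alternatives were pseudocounts of 0.1 and 5, other filters, scalings and variance models, a fit of 2 groups only, a block for the replicate number, protein-coding transcripts alone and each library left out. Other reference genes, length weighting and HO replicates 2 and 3 left out together were added after seeing the data.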

Additional observations from a re-analysis of the deposited data

How the results depend on the processing

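Of 27 results for single genes (9 genes in 3 comparisons) under up to 26 alternatives, 658 of 699 values kept their direction and side of the threshold. Only Id1 in HO vs RA passed as reported, and 16 of its 26 alternatives did not pass. The other results had no call to lose, so this total is not a measure of how stable the Id1 call was. The count of the 9 genes called in HO vs RA, 1 as reported, was 0 with a pseudocount of 5, no filter, equal totals, no variance trend, the 2 groups alone, protein-coding transcripts alone, reference genes above 0, or HO replicates 2 and 3 left out together. With each library left out in turn it was 0 to 2, with 2 (Id1 and Id3) without HO replicate 3. In HO-rWNT5A vs HO it was 0 under every alternative. In HO-rWNT5A vs RA, 0 as reported, it was 1 (Id1) with the 2 groups alone (adjusted p = 0.0436) and without HO replicates 2 and 3 (0.0447), and 0 to 1 with each library left out. The cause was not tested.

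Deviations from the group mean correlated at -0.118 to 0.279 for same-numbered libraries (9 pairs), against -0.251 to 0.172 for the 18 others. The ranges overlap, and with groups of 3 they cannot tell whether replicate numbers pair the samples. With the replicate number as a block, the count in HO vs RA was 0 (Id1 adjusted p = 0.065), and over all genes 273 calls became 123, 1 became 2 and 601 became 394. Over all alternatives these counts ran from 2 (without RA replicate 2) to 697 (without HO replicate 3) in HO vs RA, from 0 to 32 (without HO replicate 3) in HO-rWNT5A vs HO, and from 125 (without RA replicate 1) to 1359 (without HO replicates 2 and 3) in HO-rWNT5A vs RA.

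Directions turned for 21 values on the log2 scale, none of them past the threshold. In HO vs RA, Bmpr1a was -0.03 as deposited (-0.03216), -0.00404 with equal totals, -0.001036 with protein-coding transcripts alone, -0.006756 without RA replicate 2 and -0.0183 without HO replicate 1, with 0.06903 the highest (each library left out in turn). Bmp4 was 0.006034 without HO replicate 2, 0.101 without HO replicate 3 and 0.2545 without both, and -0.1474 at the lowest. Without HO replicate 2, Smad6 was -0.0231 (highest 0.1702), and without HO replicates 2 and 3 it was -0.046 and Bmpr2 -0.02754. In HO-rWNT5A vs HO, Bmpr2 was 0.005224 with equal protein-coding totals, 0.03956 without HO replicate 3 (lowest -0.07617) and 0.08425 without HO replicates 2 and 3, where Id2 was 0.01116. Bmp4 was 0.006215 when HO replicate 1 was left out, 0.006482 when HO-rWNT5A replicate 3 was, and -0.2427 at the lowest. In HO-rWNT5A vs RA, Bmpr2 was -0.008827 and Id3 -0.003579 as deposited, Smad6 0.006896 without RA replicate 2 (lowest -0.1446) and Id2 -0.09442 without RA replicate 3 (highest 0.1601).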

Other observations

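Outside the 10 genes, the pathway gene nearest to the threshold in HO-rWNT5A vs RA was lower: Heyl, a listed target, at -0.32 (limma adjusted p = 0.0721). Higher were Bmp8a, a ligand, at 0.48 (limma adjusted p = 0.0732) and Ski at 0.20 (limma adjusted p = 0.0811). Skil, a SKI-related co-repressor, was also higher at 0.28 (limma adjusted p = 0.0928). None of them passed, and they were picked for their values. Bmp8a was 1.752 to 2.278 FPKM in HO-rWNT5A against 0.885 to 1.471 in RA, so the groups did not overlap at a level near the minimum. Heyl was 0.7751 to 0.8286 FPKM in HO-rWNT5A against 1.091 to 1.347 in RA, also without overlap and near the minimum.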
